A study of Glycine max with 4 samples.

Results

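The last megabase at each end of the 20 soybean chromosomes held 3601 of the 44959 sites that were found in both immunoprecipitated samples of the series. A shared site joins a replicate 1 peak and a replicate 2 peak when each is the other's largest overlap of at least 1 bp. Its position is the midpoint of both summits, where a summit is the base of a peak with most reads piled up. Sites were taken when that position lay within 1000000 bp of position 0 or of the last deposited peak end of a chromosome, which gave 40 ends. Mid-maturation embryos of cultivar Williams 82 gave the 2 ChIP samples and the 2 input samples. The antibody was raised against a peptide from the start of the protein of GLYMA.13G317000, its amino acids 1 to 15. The input samples are sonicated chromatin of the same stage that was not immunoprecipitated, and no file of theirs was used here. Whether the antibody recognises that protein only was not tested here.

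In chromatin immunoprecipitation, proteins are crosslinked to the DNA they touch, an antibody pulls down the protein of interest, and the DNA that comes with it is sequenced. A peak is a stretch where such fragments pile up above a background. Mid-maturation is the stage at which a seed embryo lays down protein and oil. Each chromosome ends in a telomere, an array of short repeats that protects the end. In soybean, genes lie mainly along the chromosome arms towards these ends, while the broad regions around the centromeres are rich in repeats.

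Coordinates follow the authors' lists and count from 1. The sources used here do not name their genome build. The start side of a chromosome is the end at position 0, and the far side is the other end. Position 0 comes from the build, but the limit of the far side is itself the end of a peak. A peak of at least 1 list therefore touches that limit by construction, and the true length of each chromosome was not used here. Genes at the sites and their DNA sequences were not analysed here. Replicate 1 had 3883 peaks within the 40 ends and replicate 2 had 4923. The fold enrichment given for each peak is the authors' value, a ratio of the summit pileup over the local background. Summit pileups at the members ranged from 12 to 274 reads in replicate 1, with a median of 32. In replicate 2 they ranged from 12 to 302 reads, with a median of 40.

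The first question was whether the outermost megabase differs in site density from the megabases next to it. The last megabase carried 90.0 shared sites per Mb over the 40 ends (95% Poisson interval 87.1 to 93.0). The next 4 megabases inward, Mb 2 to 5, carried 94.4 per Mb (92.9 to 96.0). These intervals cover counting error only, as do all intervals given here. Replicate 1 alone gave 97.1 peaks per Mb in the last megabase and 101 in Mb 2 to 5, and replicate 2 alone gave 123 and 129. All 20 chromosomes were then compared, each with both of its ends together. The last megabase was denser on 11 chromosomes and sparser on 9, with a median log2 ratio of 0.02 and an SD of 0.29 across chromosomes (two-sided exact sign test, p = 0.824; adjusted p = 1 by the Benjamini-Hochberg method over 7 measures). The whole range of this log2 ratio was from -0.68 on chromosome 10, with 72.0 and 115 sites per Mb, to 0.33 on chromosome 19, with 98.0 and 78.1. A difference in one direction across chromosomes was thus not detected at this width of the end.

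With the end set to its outer 500 kb, 1607 sites remained, and the density was below that of Mb 2 to 5 on 17 of 20 chromosomes. The median log2 ratio was then -0.17 (two-sided exact sign test, p = 0.00258; adjusted p = 0.0180). The outer 500 kb was also set against single megabases, a comparison chosen after seeing the data. It was sparser than Mb 2 on 18 of 20 chromosomes (exact sign test, adjusted p = 0.00161 over 4 single megabases). It was sparser than Mb 3 and than Mb 4 on 15 chromosomes each, which did not pass the exact sign test (adjusted p = 0.0552 for both). Against Mb 5 it was denser on 10 chromosomes and sparser on 10, with a median log2 ratio of -0.02 (exact sign test, adjusted p = 1).

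The whole last megabase was also set against each of the 4 next megabases in turn. None of these 4 comparisons passed an adjusted p of 0.05. Mb 2 was the densest megabase of the outer 10, with 101 sites per Mb. The last megabase was sparser than Mb 2 on 13 of 20 chromosomes (median log2 ratio -0.17, exact sign test, adjusted p = 0.526). With the peaks of replicate 2 alone it was sparser than Mb 2 on 16 chromosomes (exact sign test, adjusted p = 0.0473), and with those of replicate 1 alone on 14 (adjusted p = 0.231). Against Mb 5, which had 85.8 sites per Mb, the last megabase was denser on 14 of 20 chromosomes (exact sign test, adjusted p = 0.461). From Mb 6, with 78.9 sites per Mb, the density was lower in each further step, down to 52.1 in Mb 10.

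**Figure D1:**
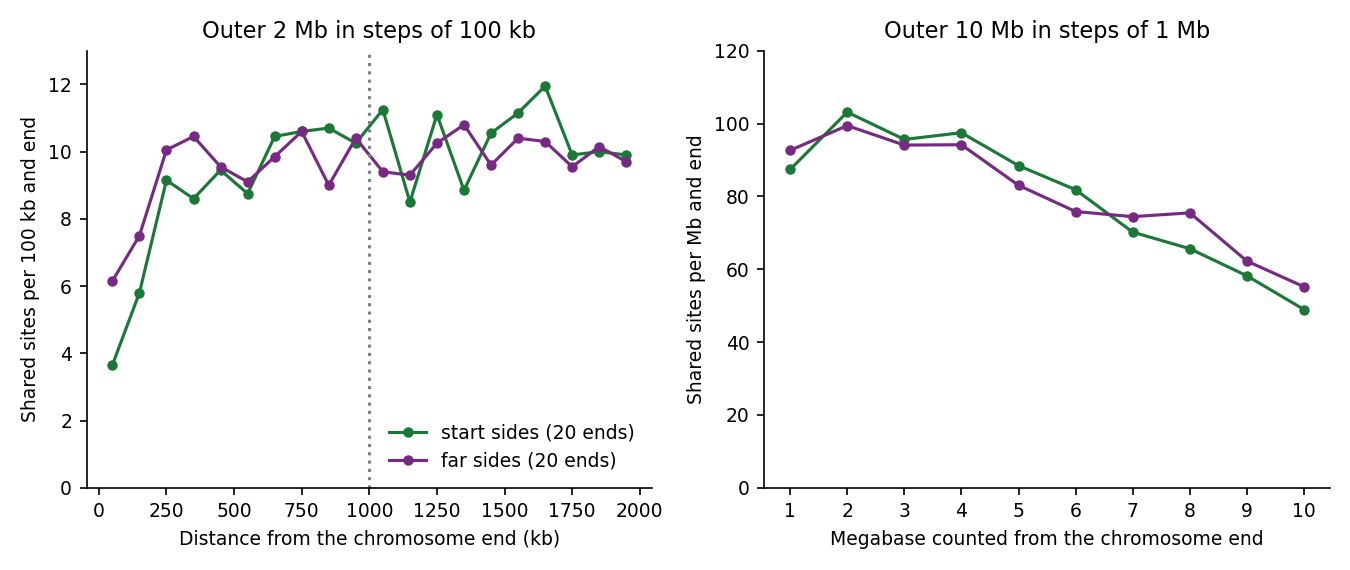
Shared sites by distance from the chromosome end, start sides (green) and far sides (purple), each the mean of 20 ends. The left panel counts sites per 100 kb over the outer 2 Mb, with a dotted line at the 1 Mb limit, and the right panel counts sites per Mb over the outer 10 Mb. The outermost 2 steps of 100 kb are the lowest on both sides, and the density per Mb is highest in Mb 2 and lowest in Mb 10.

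Within the last megabase, sites were thin in its outer 200 kb and even beyond that. Over all 40 ends, the outermost 100 kb held 196 sites (95% Poisson interval 170 to 225) and the next 100 kb held 266 (235 to 300). The other 8 steps of 100 kb held between 357 and 424 sites each. For comparison, the 10 steps from 1 to 2 Mb held between 356 and 445. Both lists showed this alone, with 210 peaks in the outermost step of replicate 1 against 383 to 468 in steps 3 to 10, and 278 against 504 to 560 in replicate 2. The outermost step was below the mean of the other 9 at 36 of 40 ends. These counts are a description with no test.

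Counts in the outer 200 kb were lower on the start sides, where the limit does not come from a peak. The 20 start sides had 73 sites in the outermost 100 kb and 116 in the next, while the far sides had 123 and 150. Because the far limit is the last peak end, any empty stretch beyond it is left out there. This contrast therefore cannot show a larger shortage on the start sides. At 5 start sides the outermost 100 kb held no shared site. Counts were also taken from the first site of each end inward. The 100 kb that follow the first site held 111 further sites on the start sides, against 191 per 100 kb in the 900 kb beyond. On the far sides these counts were 114 and 193, and on each side 17 of 20 ends showed the lower count in the nearer stretch. At 14 far sides the first site lay within 1 kb of the limit, so there this stretch is nearly the outermost 100 kb again. How readily reads align near the ends was not tested.

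The distance from the end to the first shared site differed by more than 10-fold among the start sides. The shortest were on chromosome 5, with the first site 11.5 kb from position 0, chromosome 16 at 13.8 kb and chromosome 7 at 14.2 kb. The longest were on chromosome 1 at 202 kb, chromosome 13 at 158 kb and chromosome 15 at 116 kb. The median of the 20 start sides was 33.2 kb, and at 15 of them the first site lay within 50 kb. With single peaks in place of shared sites, the median was 33.3 kb in replicate 1 and 27.4 kb in replicate 2. On chromosome 15 the first replicate 2 peak lay 69.1 kb from the end, while the first replicate 1 peak lay 116 kb from it.

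On the far sides, 14 of 20 chromosomes had their first shared site within 1 kb of the limit. The shortest distances were 0.152 kb on chromosome 17, 0.177 kb on chromosome 14 and 0.206 kb on chromosome 16. Because the limit is a peak end, these distances measure no gap at the telomere. The longest were 66.8 kb on chromosome 12, 39.5 kb on chromosome 2 and 19.3 kb on chromosome 11. There, the limit came from a peak that only 1 of the lists contained.

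First sites were weak at some ends and strong at others. On the start sides their strength, the geometric mean of both fold enrichments, ran from 4.12 to 40.4 with a median of 9.13. On the far sides it ran from 4.96 to 34.6 with a median of 7.82, against 7.97 over all members. A strength of 20 or more was reached by 2 of 20 first sites on the start sides and 1 of 20 on the far sides. The share over all shared sites of the chromosomes was 8.54%. The strongest first site was on chromosome 6 at 16337 to 16976, only 16.7 kb from position 0. There, 158 reads gave a fold of 30.8 in replicate 1 (95% counting interval from 26.2 to 35.9), and 202 reads gave a fold of 53.0 in replicate 2 (from 46.0 to 60.8). The first site of chromosome 10, at 21515 to 22444, showed folds of 28.3 and 36.8, and the next shared site was 77.1 kb away. On the far side of chromosome 5, the first site at 42216122 to 42216751 showed folds of 27.1 and 44.2. The weakest first site, on chromosome 5 at 11332 to 11631, showed folds of 4.26 and 3.99.

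**Figure D2:**
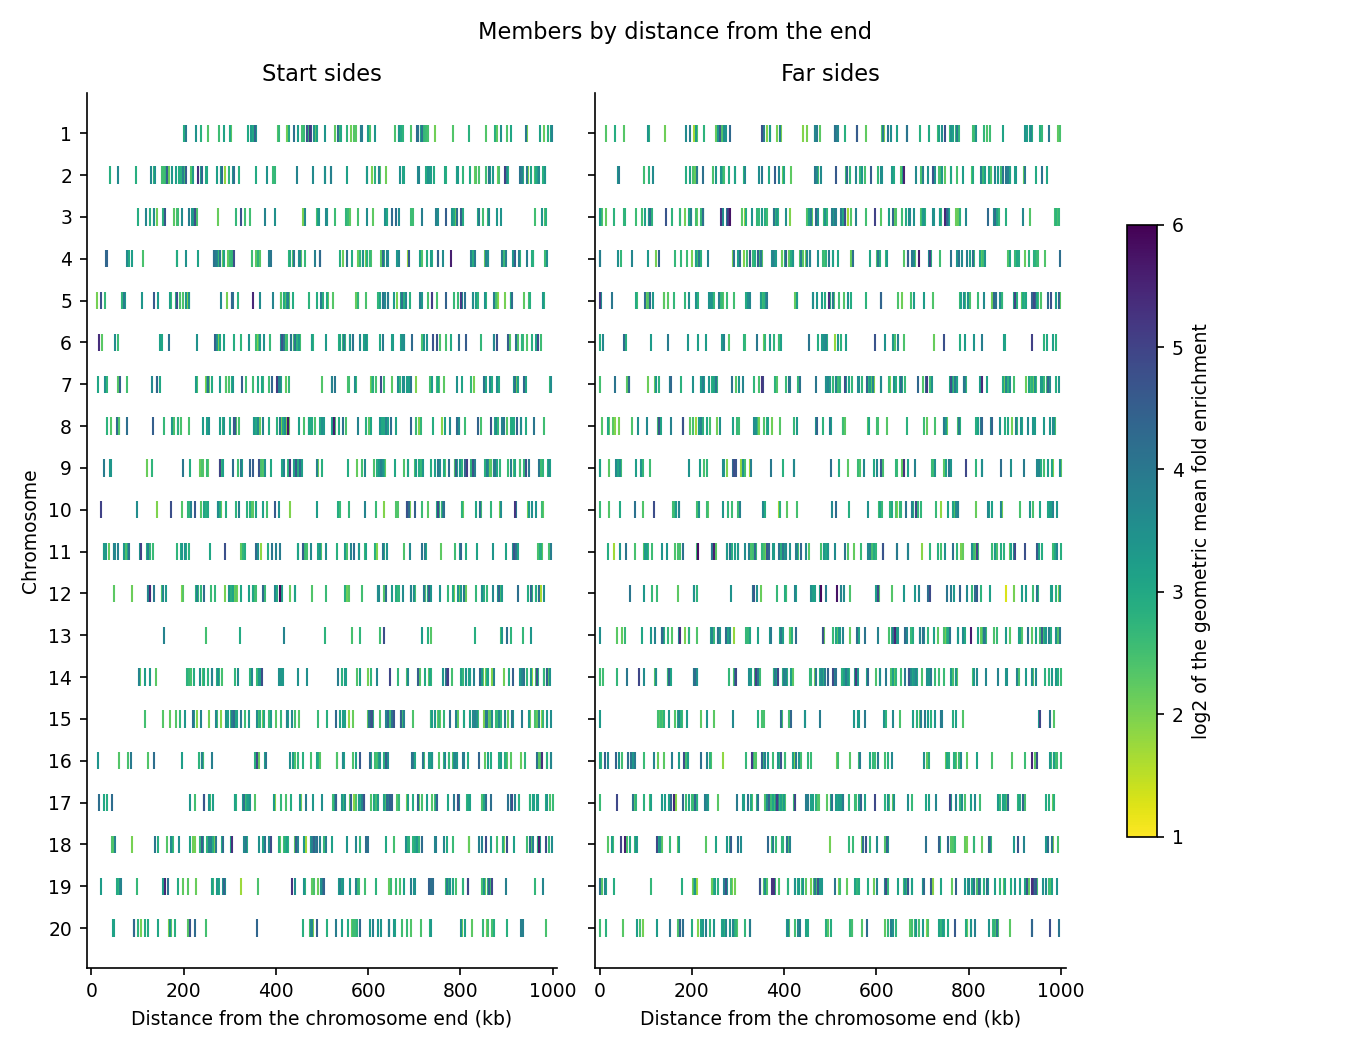
Every shared site of the last megabase, drawn as a tick at its distance from the chromosome end (kb), for the start sides (left) and far sides (right) of chromosomes 1 to 20. Colour is the log2 of the geometric mean fold enrichment, darker for stronger sites. The start side of chromosome 13 holds 19 ticks, the start side of chromosome 1 is empty up to 202 kb, and dark ticks are found at most ends.

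Ends differed from each other far more than counting allows for. The number of members per end had a mean of 90.0 and an SD of 22.3 over 40 ends, and a variance 5.51 times its mean, where independent counts would give about 1. The most sites were found on the far sides of chromosomes 14 and 17, with 121 each (95% Poisson interval 100 to 145), and of chromosome 19, with 119 (98.6 to 142). The fewest were on the start side of chromosome 13, with 19 (11.4 to 29.7), the far side of chromosome 6, with 52 (38.8 to 68.2), and the far side of chromosome 15, with 54 (40.6 to 70.5). The lists ordered the ends alike, with a Spearman's rho of 0.940 between their peak numbers at the 40 ends. The start side of chromosome 13 had 20 peaks in replicate 1 and 29 in replicate 2, while the far side of chromosome 17 had 130 and 175.

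The last megabase varied less between ends than the megabases inward. The SD between ends was 22.3 sites in the last megabase, against 27.4 in Mb 2, 34.7 in Mb 4 and 37.5 in Mb 5. The lowest count at any end was 19 sites in the last megabase, against 17 in Mb 2, 19 in Mb 3, 1 in Mb 4 and 2 in Mb 5. These spreads were not tested against each other. Across the 40 ends, the number of members had a Spearman's rho of 0.297 with the density of Mb 2 to 5 at the same end. Between the start and far sides of the 20 chromosomes, rho was -0.308. These correlations are descriptions, and neighbouring megabases share their libraries. The far side held more members on 12 chromosomes and the start side on 8.

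Single ends departed from the inward megabases in both directions. Of the 40 ends, 19 were denser than Mb 2 to 5 of the same end and 21 were sparser. The largest ratio was 1.95 on the start side of chromosome 13, where even 19 sites stood against 9.75 per Mb inward. Ratios of 1.79, 1.61 and 1.55 were found on the start side of chromosome 19 and the far sides of chromosomes 16 and 7. The smallest, 0.602, 0.604 and 0.611, were on the start side of chromosome 11 and the far sides of chromosomes 12 and 10. On chromosome 11 the start side had 88 members against 146 sites per Mb inward.

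**Figure D3:**
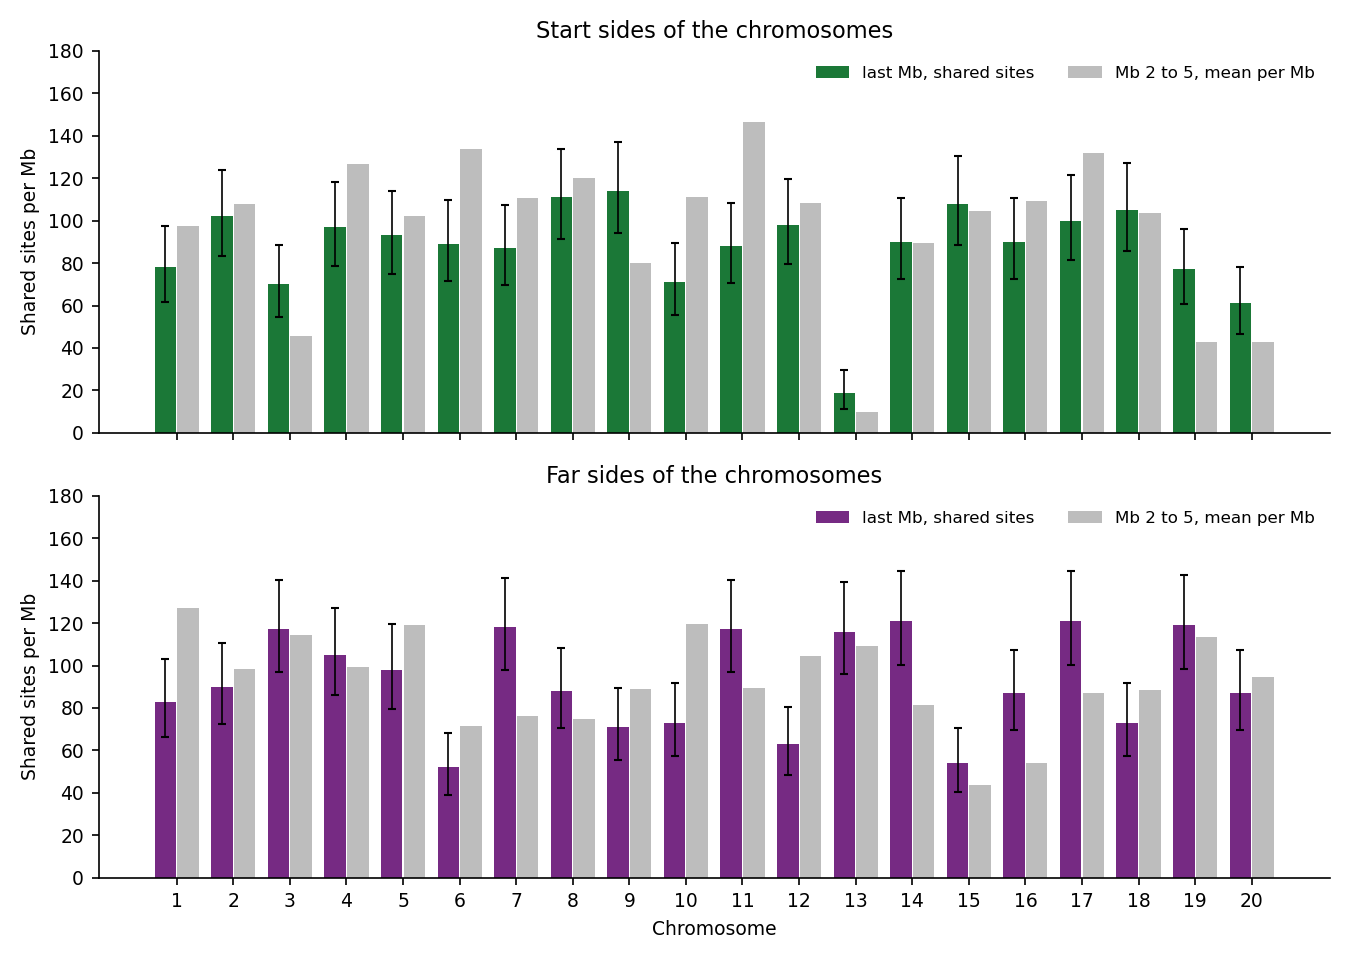
Shared sites per Mb at each of the 40 chromosome ends, with the last megabase in colour (start sides green, far sides purple; error bars are 95% Poisson intervals) and the mean of Mb 2 to 5 of the same end in grey. Coloured bars run from 19 on the start side of chromosome 13 to 121 on the far sides of chromosomes 14 and 17, and stand above grey ones at 19 ends and below at 21.

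Set against the rest of its own chromosome, the last megabase was dense. The members were 8.05% of the shared sites on the chromosomes, in 4.22% of their span. The ratio of the density in both last megabases to that of the remaining span had a median of 2.07 and was above 1 on 19 of 20 chromosomes. It was highest on chromosome 14, at 2.99, with 106 and 35.2 sites per Mb. On chromosome 13 it was 0.943, with 67.5 and 71.6 sites per Mb. That chromosome had 19 members on its start side and 116 on its far side, the widest contrast between the ends of any chromosome.

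Enrichment at the members was much like that inward. The median strength was 7.97 in the last megabase, with quartiles at 5.76 and 12.1, and 7.84 in Mb 2 to 5, with quartiles at 5.76 and 12.0. By replicate, the median folds were 7.11 and 9.20 at the members and 7.04 and 9.03 in Mb 2 to 5, for replicates 1 and 2 in that order. The median log2 strength was higher in the last megabase on 14 of 20 chromosomes, by a median of 0.04 and an SD of 0.09 across chromosomes (two-sided exact sign test, p = 0.115, adjusted p = 0.404). The difference ran from -0.12 on chromosome 10 to 0.22 on chromosome 14. It did not pass the test.

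Sites of strength 20 or more made up a slightly smaller share at the ends, but this depended on the cutoff. A strength of 20 or more was reached by 273 members, or 7.58% (95% Wilson interval 6.76 to 8.49), against 8.54% of all shared sites on the chromosomes and 8.72% (8.28 to 9.18) in Mb 2 to 5. A strength of 10 or more was reached by 1288 members, or 35.8% (34.2 to 37.3), against 35.0% of all shared sites and 34.5% in Mb 2 to 5. No test was made of these shares, and sites of an end are not independent. Of the 100 strongest shared sites of the chromosomes, 11 were members, and none of the 10 strongest was. Of the 1000 strongest, 62 were members, or 6.20%, against the 8.05% that members make up of all. Each end had at least 1 member of strength 20 or more, and the far sides of chromosomes 17 and 19 had 13 each. These were 10.7% of 121 members and 10.9% of 119. The start side of chromosome 13 had 1 of 19 members, or 5.26%. By share, the far side of chromosome 18 was highest, with 9 of 73 members, or 12.3%.

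Both strongest members lay on chromosome 12, one at each end. The first, on the far side at 39597176 to 39598193 and 480 kb from the limit, had a fold of 58.5 in replicate 1 (51.8 to 65.8, 274 reads) and 60.9 in replicate 2 (54.2 to 68.3, 293 reads). Its summits were 8 bp apart, and it ranked 12th among all shared sites of the chromosomes. The next, on the start side at 408719 to 409832, showed folds of 53.8 (46.8 to 61.5, 213 reads) and 62.9 (55.3 to 71.4, 240 reads). A further site of the far side of chromosome 12, at 39563328 to 39564157, showed folds of 50.2 and 58.9. It lay 34.2 kb from the strongest member. For these 3 sites the counting intervals of the replicates overlapped.

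Chromosomes 11 and 3 followed. The member on chromosome 11 at 34414116 to 34415055, 212 kb from the far limit, showed folds of 52.0 (45.2 to 59.6) and 60.2 (52.9 to 68.3). The member on chromosome 3 at 45481107 to 45482281 showed folds of 50.2 and 57.9. It was the strongest on the far side of chromosome 3, which held 117 members in all.

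Chromosome 8 had 2 of the 10 strongest members, 99.3 kb apart on its start side. At 426241 to 427501 the folds were 45.4 in replicate 1 (39.9 to 51.4, 244 reads) and 61.0 in replicate 2 (54.0 to 68.7, 272 reads). At 525207 to 526393 the order was the other way, with folds of 54.1 (47.3 to 61.5) and 43.4 (38.0 to 49.3). The pileup of that site was 229 reads in both replicates, over a local background of 3.25 reads in replicate 1 and of 4.30 in replicate 2. It was the only one of the 10 with a higher fold in replicate 1. Its peak was 2134 bp wide in replicate 1 and 1190 bp wide in replicate 2.

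The remaining 3 lay on chromosomes 13, 4 and 18. The member on chromosome 13 at 45015862 to 45016611 showed folds of 47.8 and 52.2, and the nearest other shared site was 13.0 kb away. On chromosome 4 at 51614067 to 51614765 the folds were 38.9 (34.1 to 44.2, 236 reads) and 61.4 (54.3 to 69.2, 267 reads). Its local background was higher in replicate 1, at 5.09 reads, than in replicate 2, at 3.37. The counting intervals leave the error of the background out, so this gap does not show a difference between samples. The member on chromosome 18 at 969539 to 970474 showed folds of 40.6 and 57.3 and lay close to the inner limit, 970 kb from position 0. None of the 10 strongest lay in the outer 200 kb of an end. Few members did, with 196 of 3601 in the outermost 100 kb and 266 in the next. A strength of 20 or more was reached by 6.12% and 9.02% of the members in these steps, against 7.58% of all members. The absence of the 10 strongest therefore does not show that strong sites avoid the outer 200 kb.

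The ratio between replicates at the members was close to that inward. The median log2 ratio of fold in replicate 2 over replicate 1 was 0.34 with an SD of 0.43 across 3601 members, and 0.33 with the same SD of 0.43 in Mb 2 to 5. Replicate 2 had the higher fold at 2842 members, or 78.9%, against 77.6% in Mb 2 to 5 and 78.4% of all shared sites on the chromosomes. Across members, Spearman's rho of both folds was 0.819, and 0.816 in Mb 2 to 5. Sites within a library share its depth and are not independent. The summits of a member had a median separation of 28 bp, and 92.4% of pairs were no more than 100 bp apart.

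**Figure D4:**
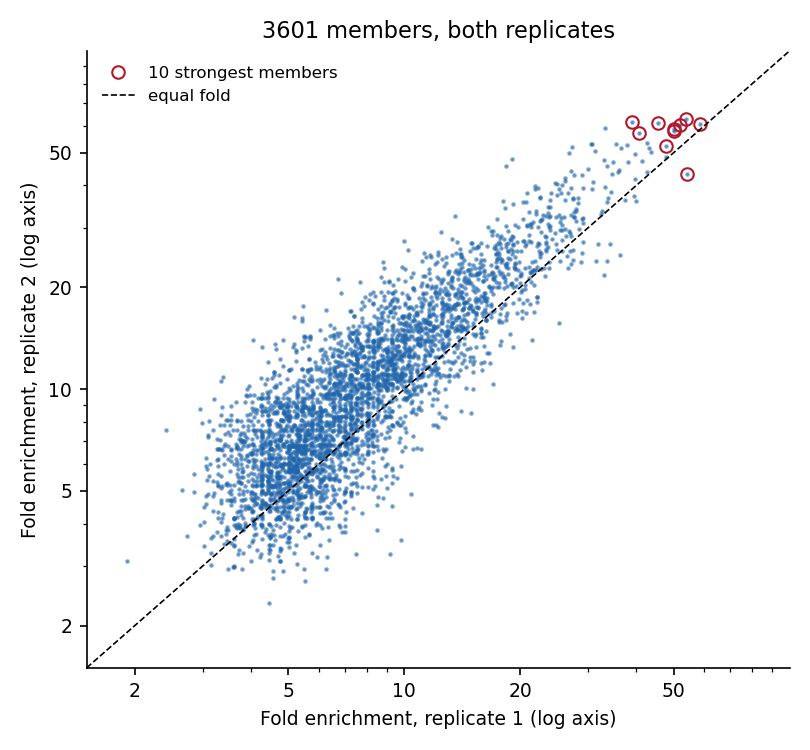
Fold enrichment of the 3601 members in replicate 1 (horizontal, log axis) and replicate 2 (vertical, log axis), 1 point per site, with the 10 strongest members circled and a dashed line of equal fold. Most points, 78.9%, lie above the line, and 9 of the 10 circled sites do. The share was 78.4% over all shared sites of the chromosomes, which are not drawn.

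The share of peaks with a partner was close to that inward. Of the peaks within the last megabase, 92.7% in replicate 1 (95% Wilson interval 91.9 to 93.5) and 73.1% in replicate 2 (71.9 to 74.4) were part of a shared site. In Mb 2 to 5 the shares were 93.0% and 73.0%. On 10 of 20 chromosomes the share was higher in the last megabase, in either list (two-sided exact sign test, p = 1, adjusted p = 1 for both). Of the 282 replicate 1 peaks without a partner, 19 overlapped a replicate 2 peak that had a larger overlap elsewhere, and 263 overlapped none. In replicate 2 these numbers were 68 and 1254 of 1322. Peaks with no overlap had median folds of 4.52 in replicate 1 and 4.83 in replicate 2.

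The strongest peak with no overlap in the other list was, in replicate 1, on chromosome 2 at 43567 to 44309. It had 39 reads, a fold of 10.1, and lay 3762 bp from the nearest replicate 2 summit. In replicate 2 it was on the far side of chromosome 2 at 48040352 to 48040770, where 44 reads gave a fold of 11.4. Higher folds, of up to 17.4 in replicate 1 and 33.6 in replicate 2, were reached by the unpaired peaks that overlapped a peak already paired with another.

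Peak widths were close to those inward. The mean of both widths at a member had a median of 430 bp, and 10% of members were wider than 715 bp, against a median of 433 bp and the same share above 716 bp in Mb 2 to 5. The median was larger in the last megabase on 10 of 20 chromosomes (two-sided exact sign test, p = 1, adjusted p = 1). Per chromosome, the difference ran from -37.8 to 27.5 bp. Among ends the median width ran from 391 bp, on the far side of chromosome 16, to 497 bp, on the far side of chromosome 7. Wider members were stronger, with a Spearman's rho of 0.725 between width and strength across members, and 0.730 in Mb 2 to 5. Both measures come from the same pileup.

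The widest member, on chromosome 19 at 50232107 to 50233993, was 2024 bp wide in replicate 1 and 1887 bp wide in replicate 2. Its folds were 17.9 and 15.7, well short of the strongest. The next was the site on chromosome 8 at 525207 described above. The third, on chromosome 7 at 44068096 to 44069451, was 1867 bp and 1356 bp wide, with folds of 23.7 and 32.3. These 3 were picked after their values were seen.

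Members lay a median of 3.07 kb from the nearest shared site, against 2.96 kb in Mb 2 to 5. The median distance was larger in the last megabase on 10 of 20 chromosomes (two-sided exact sign test, p = 1, adjusted p = 1). Against Mb 2 alone it was larger on 16 chromosomes, by a median of 0.338 kb (exact sign test, adjusted p = 0.0827). Of the members, 13.2% had a neighbour within 1 kb and 34.3% within 2 kb, against 12.7% and 36.5% in Mb 2 to 5. By end, the median distance ran from 1.92 kb on the far side of chromosome 14 to 17.7 kb on the start side of chromosome 13.

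**Figure D5:**
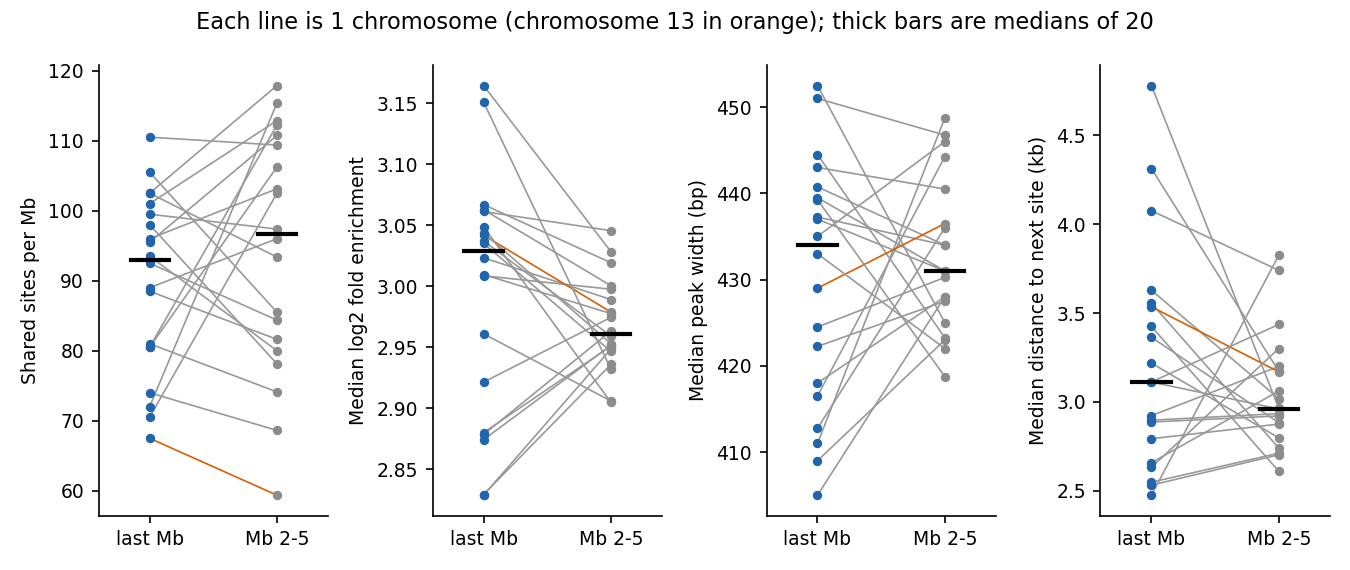
Density, median log2 fold enrichment, median peak width and median distance to the nearest shared site in the last megabase (left in each panel) and in Mb 2 to 5 (right), 1 line per chromosome with both ends together, chromosome 13 in orange, black bars for the medians of 20 chromosomes. Vertical axes do not start at 0. Lines run both up and down in every panel, for density down to the right on 11 chromosomes and up on 9.

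Runs of at least 3 members in which each lay within 2 kb of the next numbered 109 and held 360 members, or 10.0%. They occurred at 37 of 40 ends, at 2.73 per Mb, against 3.42 per Mb and 12.2% of sites in Mb 2 to 5. The longest runs had 6 members, while Mb 2 to 5 had runs of up to 9. Mb 2 to 5 is a longer span with 547 runs, so these maxima do not show that runs are shorter at the ends. One run of 6 members, on the far side of chromosome 17 from 41078404 to 41084458, held sites with strengths of 15.6, 4.33, 9.37, 6.80, 5.29 and 9.55 in order of position. Its strongest site showed folds of 14.6 and 16.7. The other, on the far side of chromosome 3 from 45272537 to 45278399, had a median strength of 5.76. Of the 8 runs with at least 5 members, only that on the start side of chromosome 18, from 967320 to 971611, held a member that was among the 10 strongest.

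The longest interval without a shared site between members was on the start side of chromosome 17, from 44979 to 214784, or 170 kb. Intervals of over 100 kb inside an end were found at 3 of 40 ends, and the median of the longest interval per end was 69.1 kb. Of the 100 members of that end, 4 lay between position 0 and the interval.

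The local background, used above as a divisor, was close to the lowest level that its list contained. Its medians at the members were 3.41 reads (replicate 1) and 3.35 reads (replicate 2), over lowest levels of 2.98 and 2.83 reads. The share of sites with a background above the lowest level in either list was 90.5% in the last megabase and 89.0% in Mb 2 to 5. It was higher in the last megabase on 14 of 20 chromosomes, by a median of 1.07 percentage points (two-sided exact sign test, p = 0.115, adjusted p = 0.404). The highest background of all members was on chromosome 12 at 39197213 to 39197462, with 35.7 reads in replicate 1 and 33.1 in replicate 2. The folds there were 1.91 and 3.11, although 69 and 105 reads were piled up at the summits, and the strength of 2.43 was the lowest of all members. A background of at least 3 times the lowest level in both lists was found at 3 members, against 33 among all shared sites. Members were 8.05% of the shared sites on the chromosomes. Another of these 3 members, on chromosome 12 at 39179024 to 39179596, lay 17.9 kb from the one with the highest background.

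The limit of 1 Mb is a matter of choice and cuts through an even stretch. Between 0.9 and 1.0 Mb there were 413 sites with a median strength of 8.06, and between 1.0 and 1.1 Mb there were also 413, with a median of 7.50. The nearest member inside was on chromosome 17, 999.5 kb from position 0, with folds of 4.95 and 7.54. The nearest site outside was on chromosome 18, 1000.1 kb from position 0, with folds of 11.7 and 15.6.

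Chromosomes 10 and 20 had 73.0 members per end and a median strength of 7.30, with 18 of 292 members of strength 20 or more. Chromosomes 3 and 19 had 95.8 members per end and a median of 7.81, with 36 of 383 at that strength. The 15 chromosomes other than these and chromosome 13 had 93.0 per end and a median of 8.06, with 213 of 2791. Over all shared sites of the chromosomes, 8.54% reached that strength. These groups were not tested against each other.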

How the data were processed

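ChIP-seq of 2 ChIP samples was analysed from 1 deposited peak list per replicate, so peaks were called per sample. The submitters' processing notes name Bowtie 0.12.7 and MACS2. Neither the build nor the version and threshold of MACS2 is given in the sources used here. For each peak the authors deposited a fold enrichment (a ratio), a −log10 p-value, a −log10 q-value and a score, which is 10 times the −log10 q-value with the decimals dropped, at every peak of both lists. No q-value exceeded 0.00563 in replicate 1 or 0.00871 in replicate 2. Taking the fold as (pileup + 1) / (background + 1) and the p-value as a Poisson tail, all 48191 and 62340 peaks had a whole pileup that matched to within 0.001 (−log10). Library sizes are unknown. PCR reads are not independent molecules.

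The members and measures were chosen with earlier results of these data known. Chromosomes served as units in exact sign tests, with Benjamini-Hochberg adjustment over 7 measures or 4 single megabases. Scripts were tested on simulated data. Named sites are the 10 strongest members, the 3 fullest and 3 emptiest ends, the 3 longest and 3 shortest first distances per side, the longest interval and the sites nearest the 1 Mb limit. Others were picked after their values were seen. The submitters' design text calls the replicates biological. With 2 lists, p-values measure the spread between chromosomes, not between embryos. Analyses used Python 3.11.15, numpy 2.4.6, scipy 1.17.1 and pandas 2.3.3.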

Additional observations from a re-analysis of the deposited data

How the results depend on the processing

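Of 83 values recomputed under alternatives, 64 were counted as unchanged, 15 changed direction and 4 moved. For tested values, unchanged means the same direction and side of the threshold. Member counts and first site distances have no direction. Peaks of replicate 2 alone gave 4923 members, counted as unchanged, against 3601 shared sites. What moved was the first site distance in that list, the members of a 0.5 Mb end, and the number of single megabases that passed in either setting. Density against Mb 2 to 5 had a median log2 ratio of -0.10 with 40 ends as units, -0.17 against Mb 2 alone, -0.17 with an end of 0.5 Mb, which alone passed the test, and -0.12 with start sides only. Without 1 replicate it lay between -0.00518 and 0.0511. An end of 0.5 Mb kept 1607 members, and 1 of 4 single megabases then passed, as it did in the replicate 2 list alone (0 to 1 over both lists). The first site distance was 27.4 to 33.3 kb over the lists. The share of replicate 1 peaks with a partner differed by 0.457 percentage points against Mb 2 alone and by 0.160 at q of at most 0.0001. For replicate 2 it differed by 0.678 with 40 ends, 0.111 against Mb 2 alone, 0.630 with an end of 0.5 Mb, 0.831 with far sides only and 0.269 at the stricter q. Without chromosome 13, spacing differed by -0.0345 kb and width by 2.5 bp, and width by -3.75 to 3.25 bp over the lists. Of the values that changed direction, only the density at 0.5 Mb passed its test, and the cause was not tested. An overlap of at least 50% changed no direction. No paired analysis was possible because the input samples had no peak list used here and no groups of samples were compared. The lowest summit pileup of a member was 12 reads, and the effect of depth on weak sites was not tested.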
